A study of Mus musculus with 16 samples.

Results

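Proximal mouse colon organoids that carried Cdx2-sgRNA were compared with proximal colon organoids that carried the control guide, Scramble-sgRNA, with both kept in WENR-plus medium. The 4 libraries, 2 for each guide, were picked out of the 16 of the series by the region, guide and medium in their titles, and the comparison was read over all genes. Organoids are epithelial structures that grow in a gel from the crypt cells of the colon. WENR-plus medium held the niche factors Wnt3a, EGF, Noggin and R-spondin 1, and the other medium of the series, WENR-minus, lacked them. Every group came from female mice of 8 weeks that were heterozygous for a Cre-inducible BRAFV600E allele and for a tdTomato reporter, and no Cre step is described for the organoids read here. The guides were delivered with Cas9 by lentivirus, and RNA was taken in month 4 of culture, after 2 days in WENR-plus and 3 further days in the same medium. The Cdx2-sgRNA organoids had grown from single cells and were kept where both alleles held a frameshift. No single-cell step is described for the Scramble-sgRNA organoids, so that the guide and the growth from 1 cell cannot be told apart. By the methods, the replicates came from 2 independent mice and the same organoids were split between the media, but the labels do not say which mouse or clone a library came from. With 1 library per mouse and group, mouse and clone cannot be told apart in the spread that the p-values measure.

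CDX2 is a homeobox transcription factor of the intestinal epithelium. It is switched on in the hindgut endoderm, and in the adult gut it binds and keeps active the genes of absorptive, goblet and enteroendocrine cells, in part together with the nuclear receptor HNF4A. Mouse intestine that lacks it is known for a loss of mature intestinal traits and for patches of stomach-like or squamous-like epithelium. Wnt factors act on the crypt base, where they maintain stem cells and hold back differentiation.

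The target of the guide is shown because it fixes where the Cdx2 message can be altered. The guide matched the sense strand of exon 1 of 3 of Cdx2, at chr5:147306485-147306504 of GRCm38, on the minus strand of the genome and within the coding sequence. The motif that Cas9 needs beside its target (PAM) is in capitals.
Cdx2 guide target: agcggcgaaacctgtgcgagTGG
The cut falls after 495 of the 933 coding bases, and the 2261-base transcript is the only one annotated for the gene. Cdx2 gave 2964 and 2148 reads in the Scramble-sgRNA libraries and 515 and 630 in the Cdx2-sgRNA libraries. Scaled to library size, these were 142 and 127 against 29.9 and 33.3 CPM (CPM, counts scaled by TMM to a common library size). Message was thus left in both Cdx2-sgRNA libraries at about the same level, and the groups did not overlap. The log2 fold change of Cdx2-sgRNA against Scramble-sgRNA was −2.09 (standard error 0.21, adjusted p = 5.48e-05) by the quasi-likelihood test of edgeR with Benjamini-Hochberg adjustment over all genes tested, which also gave every adjusted p below. Counts per gene do not show whether a transcript carries a frameshift.

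Total counts of the 4 libraries lay between 14079566 and 16229558, and mitochondrial ribosomal RNA took 15.4% and 21.2% of the counts in the Scramble-sgRNA libraries and 27.97% and 23.4% in the Cdx2-sgRNA libraries. Of the 20 fibroblast and muscle markers listed, 7 passed the filter on low counts. Their sum came to 15.8 and 10.3 CPM in Scramble-sgRNA and 1.74 and 0.634 CPM in Cdx2-sgRNA libraries. The defining fibroblast gene Col1a1 had 0 and 1 against 7 and 5 reads and the leukocyte gene Ptprc 0 and 2 against 1 and 0 reads, so both were at or near 0 in the 4 libraries. Immune markers summed to 18.9 and 14.1 CPM against 37.4 and 36.2, over 5 of 20 genes tested, with Csf1r at 1 and 0 against 157 and 35 reads. A gene near 0 with Scramble-sgRNA could pass the filter through the Cdx2-sgRNA group alone. Endothelial and neural markers summed to 18.5 and 15.9 CPM against 21.98 and 28.1, over 10 of 20. The part of these in the results was not tested. Epithelial markers were present in all 4 libraries, with the adhesion molecule Epcam (1091 and 976 against 574 and 574 CPM), E-cadherin, Cdh1 (782 and 764 against 682 and 535 CPM), and keratin 19, Krt19 (1080 and 1154 against 2175 and 1542 CPM). The markers that define the intestine among epithelia, such as Cdh17 (763 and 586 against 16.2 and 13.1 CPM) and Muc13 (844 and 762 against 15.2 and 17.1 CPM), were high in the Scramble-sgRNA and low in the Cdx2-sgRNA libraries. Both genes mark the whole intestine, and they do not tell colon from small intestine. Of 14 defining markers of colon epithelium tested 4 fell (7 without Cdx2-sgRNA replicate 1) and none rose. In bulk RNA, fewer cells of a type and less RNA per cell cannot be told apart, which applies to each cell type named here.

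The replicates of the Cdx2-sgRNA organoids stood apart on a pair of chromosomes, which is given before the results because it bears on the counts of lower genes. Among genes with at least 5 CPM in either group, the median log2 ratio of Cdx2-sgRNA replicate 2 to replicate 1, relative to the median of all such genes, was −0.345 on chromosome 4 (643 genes) and −0.297 on chromosome 13 (425 genes). On the other autosomes and the X chromosome it lay between −0.00752 and 0.0578. The shift ran along both chromosomes: it was below 0 in 8 of 8 windows of 20 Mb on chromosome 4 and in 6 of 6 on chromosome 13. The proximal Cdx2-sgRNA libraries in WENR-minus medium, which were not used in the comparison, gave −0.322 and −0.294 for the same chromosomes, while the Scramble-sgRNA libraries in WENR-plus gave 0.0384 and 0.0239. In these Scramble-sgRNA libraries 3 of 8 windows on chromosome 4 and 1 of 6 on chromosome 13 were below 0. However, 1 of their windows on chromosome 4 lay at 0.662, further from 0 than the lowest Cdx2-sgRNA window there (−0.391). What underlies these shifts was not tested. Without Cdx2-sgRNA replicate 2, the genes called lower fell in number from 112 to 65 on chromosome 4, from 97 to 37 on chromosome 13 and from 1158 to 787 on all other chromosomes.

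**Figure D1:**
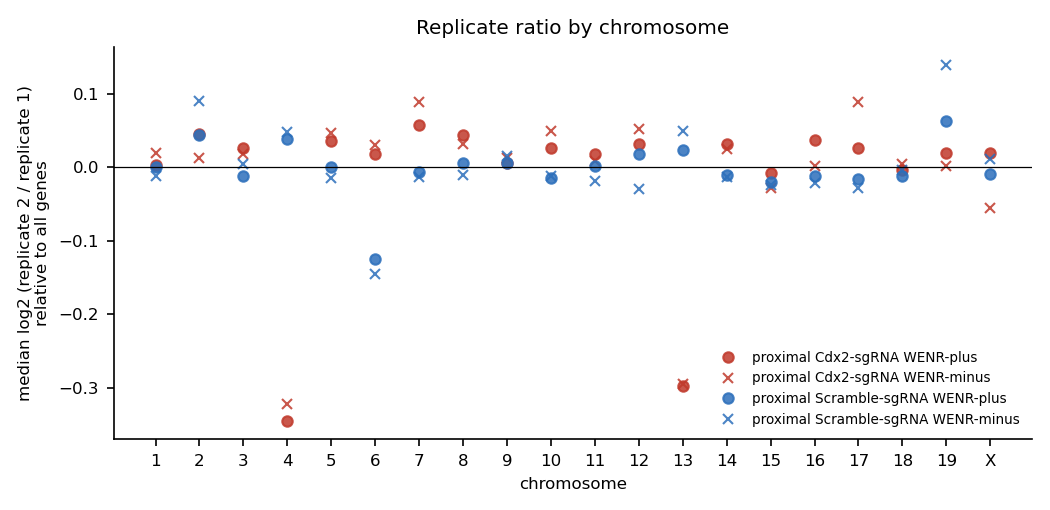
Median log2 ratio of replicate 2 to replicate 1 for each chromosome, relative to the median of all genes with at least 5 CPM, in proximal Cdx2-sgRNA and Scramble-sgRNA organoids in both media. Chromosomes 4 and 13 lie at −0.345 and −0.297 in Cdx2-sgRNA organoids in WENR-plus. The chromosome medians of the proximal Scramble-sgRNA organoids do not show this, with their lowest value in WENR-plus on chromosome 6 (−0.125).

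Of 15289 genes tested, 2427 (15.9%) passed an adjusted p under 0.05 with an absolute log2 fold change over 1, which is what "called", "rose" and "fell" mean here. There were 1060 higher genes (6.93%) and 1367 lower genes (8.94%), and without the fold limit 3787 genes passed. These shares are the background for the counts of each gene list below. Changes were larger among lower genes: their median absolute log2 fold change was 2.88, against 2.37 for higher genes, and 383 of them passed 5, against 208 higher genes. For 169 of the lower genes not 1 read was found in either Cdx2-sgRNA library, and 63 higher genes had no read in either Scramble-sgRNA library. Of all genes tested, 65.2% had no overlap between the groups of 2 libraries, so that this alone says little. The counts depended on single libraries, with 1511 and 1577 called genes without Scramble-sgRNA replicate 1 or 2 and 2150 and 1669 without Cdx2-sgRNA replicate 1 or 2. Under every alternative that tested them, 386 higher and 519 lower genes kept their call, and the genes named below belong to these unless a sentence says otherwise. Genes named only as neighbours in a run along a chromosome are given by their main call alone.

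**Figure D2:**
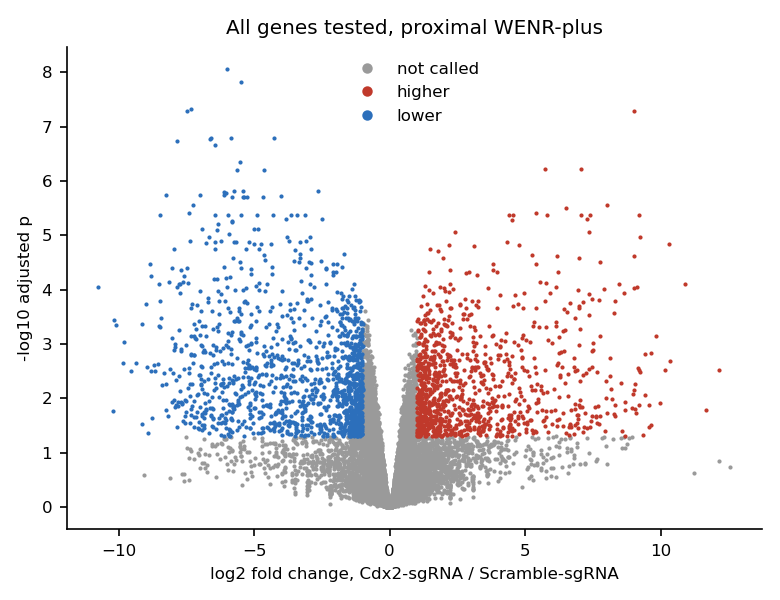
Log2 fold change of Cdx2-sgRNA against Scramble-sgRNA in proximal organoids in WENR-plus (x axis) and the negative log10 of the adjusted p (y axis) for 15289 genes. Called genes are coloured, 1060 higher and 1367 lower, and the grey genes with large changes did not reach the adjusted p.

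Transcription factors of intestinal identity fell far more often than they rose. Of 34 tested, 13 fell and 1 rose, with a median log2 fold change of −0.85 (−0.37 without Scramble-sgRNA replicate 2) against −0.05 over all genes tested. Cdx1, the paralog of Cdx2, had 70.96 and 66.8 CPM in the Scramble-sgRNA libraries and 0.928 and 0.476 CPM in the Cdx2-sgRNA libraries, a log2 fold change of −6.62 (standard error 0.29, adjusted p = 1.69e-07). Hnf4a, the nuclear receptor that shares many binding regions with CDX2, had 254 and 249.7 CPM in the Scramble-sgRNA libraries and 65.8 and 31.4 CPM in the Cdx2-sgRNA libraries, and fell by 2.38 on the log2 scale (adjusted p = 0.000314). Thus Cdx1 was left at about 1 CPM, while Hnf4a was reduced but present in both Cdx2-sgRNA libraries. Its paralog Hnf4g fell too, with 9.75 and 10.8 against 1.51 and 2.80 CPM. The largest fall of the list was that of Isx, a homeobox repressor of carotenoid uptake, with 197 and 180.3 against 1.28 and 1.06 CPM and a log2 fold change of −7.33 (standard error 0.26, adjusted p = 4.81e-08). Among the other lower members, the vitamin D receptor Vdr had 127 and 120.4 against 1.16 and 3.60 CPM, and the xenobiotic receptor Nr1i2 had 24.7 and 20.1 against 2.67 and 1.90 CPM. The bile acid receptor Nr1h4 had 26.4 and 18.9 against 6.26 and 6.45 CPM, and Nr5a2, a receptor of crypt cells, had 24.9 and 30.3 against 0.406 and 0.529 CPM. Prdm1, a repressor that marks the immature fetal and neonatal gut, was the one that rose, with 3.06 and 2.43 against 18.4 and 28.3 CPM and a log2 fold change of 3.08 (standard error 0.45, adjusted p = 0.000745). Several factors of the same list were not called, among them Gata6 (22.1 and 24.9 against 40.3 and 42.2 CPM), Sox9 of the crypt base (106 and 140.5 against 138 and 124 CPM) and the epithelial factor Ehf (412 and 448 against 349 and 412 CPM). Gata6 was called higher with length-scaled counts. The call of Maf (26.1 and 34.7 against 3.60 and 0.529 CPM) ended without Cdx2-sgRNA replicate 2 (log2 fold change −3.075). It also ended with the replicate block on only the libraries of the comparison. That of Klf5 (399.6 and 417 against 214 and 178 CPM) ended without Cdx2-sgRNA replicate 2, where its log2 fold change of −0.929 was under the fold limit, and under 4 other alternatives.

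Goblet cells make the mucus of the colon, and 20 of the 36 goblet cell genes tested fell, with a median log2 fold change of −3.95 (−4.23 with genes near 0 reads set to the fold their counts allow). The regulators of the lineage were among them. Atoh1, which commits cells to the secretory fate, had 609 and 595 reads in the Scramble-sgRNA libraries and 2 and 3 in the Cdx2-sgRNA libraries, Gfi1 had 109 and 100 against 0 and 0 reads and was at least 66.6-fold lower, and Spdef, which matures goblet cells, had 26.6 and 46.6 against 0.580 and 1.38 CPM. The gel-forming mucin Muc2 had 153 and 375 CPM in the Scramble-sgRNA libraries and 3.88 and 4.55 CPM in the Cdx2-sgRNA libraries, a log2 fold change of −5.96 (standard error 0.89, adjusted p = 0.000874). Other secretory products fell as well. The trefoil peptide Tff3 had 34.2 and 38.6 against 0.522 and 0.264 CPM, the mucus protein Fcgbp 253 and 289 against 13.3 and 17.2 CPM and the disulfide isomerase Agr2 236 and 349.6 against 11.1 and 3.17 CPM. Spink4 had 146 and 283 against 5.45 and 2.48 CPM, and the antimicrobial ribonuclease Ang4 had 89.5 and 101 against 0.464 and 0.423 CPM. In each of these the lower Scramble-sgRNA library was still far above the higher Cdx2-sgRNA library. Zg16 (9.03 and 13.8 against 3.94 and 3.28 CPM), Clca1 (11.1 and 13.6 against 12.1 and 5.82 CPM) and Bcas1 (39.5 and 42.4 against 37.9 and 9.68 CPM) of the same list were not called, but Bcas1 was called lower without Cdx2-sgRNA replicate 1 (log2 fold change −2.09), and Zg16 with no filter on low counts and with only the libraries of the comparison. Qsox1, an oxidase that crosslinks proteins, was the one member that rose, at 20.9 and 33.9 against 103 and 369 CPM, and this call ended without Cdx2-sgRNA replicate 2 and without Scramble-sgRNA replicate 1 (adjusted p up to 0.0657).

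The enzymes that build the sugar chains of mucins were less uniform: 11 of 33 fell and 2 rose. B4galnt2, which makes the Sd(a) blood group antigen of the colon, had 220.4 and 222 against 2.67 and 2.33 CPM and a log2 fold change of −6.46 (standard error 0.30, adjusted p = 2.16e-07). The sulfotransferase Chst4 (22.9 and 22.9 against 0.116 and 0.211 CPM) and A4gnt, which caps mucin chains of the gastric gland type (15 and 12.7 against 0.174 and 0.0529 CPM), fell to below 1 CPM. The starting enzymes Galnt1 (71.9 and 79.8 against 109 and 114 CPM), Galnt3 (137 and 135 against 138 and 109 CPM) and Galnt4 (117 and 114 against 55.3 and 118 CPM) were not called, and the branching enzyme Gcnt1 rose (48.2 and 23.5 against 232 and 155 CPM).

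Hormone-producing enteroendocrine cells arise from Neurog3-positive precursors. None of the 33 enteroendocrine genes tested rose and 18 fell, beside 6.93% and 8.94% of all genes. Neurog3 had 301 and 229 reads in the Scramble-sgRNA libraries and 5 and 1 in the Cdx2-sgRNA libraries, and its downstream factor Neurod1 had 90 and 75 against 1 and 0 reads, which is 158-fold lower (counting interval 27.9 to 6267). The granule proteins Chga (18.01 and 16.9 against 0.348 and 0.264 CPM) and Chgb (47.8 and 28.5 against 0.580 and 0.423 CPM) fell by 5.81 and 6.24 on the log2 scale. The levels were low from the start, and 17 of the list had at most 3 reads in 1 of the groups. Insm1, a zinc finger factor of the same lineage, was not called (7.60 and 9.65 against 8.23 and 14.8 CPM). Tuft cells are the chemosensory cells of the epithelium, and 8 of 28 genes listed for them passed the filter, which a gene could pass through the Cdx2-sgRNA group alone. The defining tuft factor Pou2f3 had 0 and 2 against 0 and 7 reads, and Gfi1b, Rgs13, Gnat3, Chat and Il25 had 0 reads in the 4 libraries. Of the genes tested 4 rose and 1 fell, with 2 higher without Scramble-sgRNA replicate 1 or without Cdx2-sgRNA replicate 2. Ptgs1, a cyclooxygenase, had 3 and 5 against 781 and 512 reads, and the interleukin 25 receptor Il17rb had 1.82 and 1.01 against 8.58 and 7.46 CPM. The tuft cell kinase Dclk1 (0 and 0.237 against 2.20 and 10.6 CPM) and Alox5ap (0 and 0.118 against 1.51 and 16.6 CPM) also rose. Both calls ended without Cdx2-sgRNA replicate 2 and without Scramble-sgRNA replicate 1. That of Alox5ap also ended without Scramble-sgRNA replicate 2, and that of Dclk1 with length-scaled counts. With 1 library left out, the log2 fold changes ran from 4.22 to 9.76 for Dclk1 and from 4.61 to 10.3 for Alox5ap.

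Genes of the absorptive cell surface were next. Of 48 colonocyte genes tested 22 fell (45.8%, beside 8.94% of all genes) and 4 rose (8.33%, near the 6.93% of all genes). The median log2 fold change was −1.08. The number of higher genes was 1 without Scramble-sgRNA replicate 2 and 2 without Cdx2-sgRNA replicate 2. Cdh17, the cadherin of the intestine, had 763 and 586 CPM in the Scramble-sgRNA libraries and 16.2 and 13.1 CPM in the Cdx2-sgRNA libraries, and the membrane mucin Muc13 had 844 and 762 CPM in the Scramble-sgRNA libraries and 15.2 and 17.1 CPM in the Cdx2-sgRNA libraries. Their log2 fold changes were −5.53 (standard error 0.28, adjusted p = 4.58e-07) and −5.64 (standard error 0.30, adjusted p = 6.23e-07). The galectin Lgals4 of intestinal epithelium was reduced to a lesser degree, at 1297 and 1372 against 380.3 and 233 CPM. Car1, the carbonic anhydrase of colonocytes, fell by 3.16 on the log2 scale (207 and 144 against 22.4 and 16.97 CPM), and Fabp2, a fatty acid carrier, had 5.30 and 9.17 against 0.812 and 0.740 CPM, a call that ended without either Cdx2-sgRNA library and without Scramble-sgRNA replicate 2 (adjusted p up to 0.101). Krt20, the keratin of mature surface cells, moved the other way, with 25.9 and 20.3 CPM in the Scramble-sgRNA libraries and 104 and 213 CPM in the Cdx2-sgRNA libraries and a log2 fold change of 2.78 (standard error 0.57, adjusted p = 0.00515), and this call ended without Scramble-sgRNA replicate 2 (adjusted p up to 0.0529). Slc26a3 (4.63 and 4.50 against 2.61 and 2.70 CPM) and Car4 (1.34 and 1.54 against 1.51 and 2.06 CPM), both of mature colonocytes, were low in all 4 libraries and were not called.

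**Figure D3:**
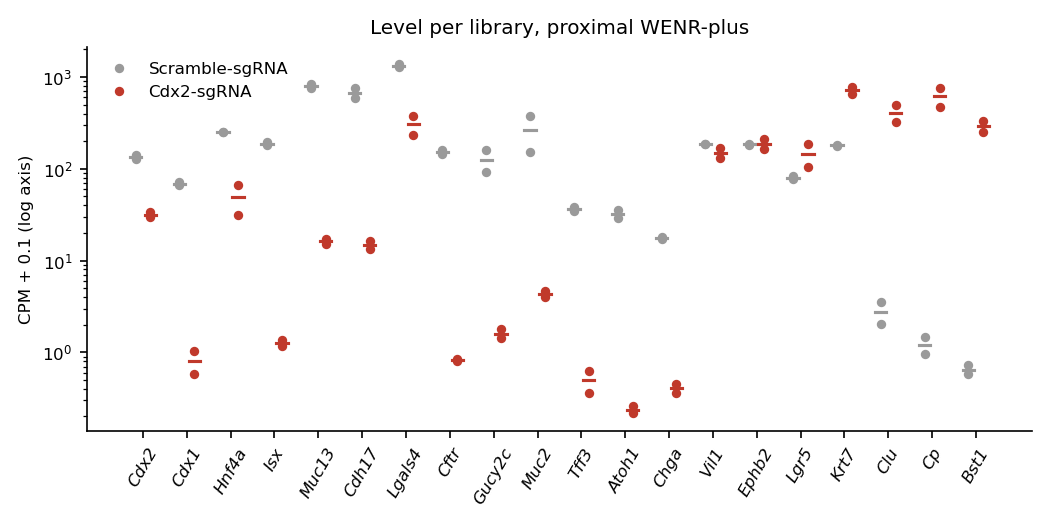
CPM plus 0.1 on a log axis for 20 genes in the 2 Scramble-sgRNA and 2 Cdx2-sgRNA libraries, 1 point per library, with the bar at the group mean. Muc13 and Cdh17 drop to below 20 CPM, Vil1, Ephb2 and Lgr5 were not called, and Clu, Cp and Bst1 rise from below 4 CPM.

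Of 27 brush border genes tested 9 fell (33.3%) and 1 rose (3.70%), beside 8.94% and 6.93% of all genes. Cdhr2 and Cdhr5, the protocadherins at the tips, had 131 and 101 against 30.3 and 10.1 CPM and 75.8 and 72.2 against 2.49 and 2.64 CPM. Their partners Ush1c and Myo7b had 67.8 and 58.1 against 0.638 and 0.634 CPM and 215 and 236 against 4.64 and 5.97 CPM, and the motor Myo1a had 37.4 and 42.2 against 4.17 and 3.65 CPM. The call of Cdhr2 ended without Cdx2-sgRNA replicate 2 (adjusted p up to 0.0603). The actin bundlers Vil1 (188 and 185 against 168 and 132 CPM) and Espn (2.25 and 9.82 against 1.80 and 17.3 CPM) were not called, nor was Pls1 (185 and 193 against 148 and 124 CPM), which had an adjusted p of 0.0300 but a log2 fold change of −0.47, under the fold limit. Genes better known from the small intestine were also found in the Scramble-sgRNA organoids, and of 35 tested 12 fell and 1 rose. Of all those tested 10 had at most 3 reads in 1 group, and 4 had no more than that in either. The glucose transporter Slc5a1 had 67.5 and 82.1 against 0.580 and 0.264 CPM and the bile acid transporter Slc10a2 19.6 and 36.2 against 0.464 and 0.740 CPM. The maltase Mgam had 233 and 279 against 30.3 and 11.1 CPM, and the cobalamin receptor Cubn had 38.3 and 70.9 against 0.754 and 1.43 CPM.

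Fluid secretion in the gut runs through guanylin peptides, their receptor and the chloride channel CFTR. Of 46 genes of ion and water transport tested 13 fell (28.3%) and 4 rose (8.70%), beside 8.94% and 6.93% of all genes. The share that rose is thus near that of all genes. The median log2 fold change was −0.43, and −0.57 to −0.22 with 1 library left out. The guanylins Guca2a (10.6 and 23.1 against 0.406 and 0.476 CPM) and Guca2b (8.84 and 7.58 against 0.174 and 0.106 CPM) fell. The receptor Gucy2c (159.5 and 91.96 against 1.68 and 1.32 CPM) and Cftr itself (159 and 146 against 0.696 and 0.740 CPM) fell too, the last with a log2 fold change of −7.71 (standard error 0.73, adjusted p = 4.29e-05). The sodium pump subunit Atp1b1 fell less (875 and 961 against 269.6 and 249 CPM), and the potassium channel Kcnma1 had 470 and 602 against 3 and 1 reads. Among the higher genes, Ano1, a calcium-activated chloride channel, had 11.4 and 16.2 against 134 and 52.3 CPM, and Aqp5, the water channel of glands, had 3 and 0 reads in the Scramble-sgRNA libraries and 3898 and 1946 in the Cdx2-sgRNA libraries, which is 2038-fold higher (counting interval 697 to 9885). Of 20 claudin and tight junction genes 4 fell and 1 rose (2 fell without Cdx2-sgRNA replicate 2), beside 8.94% and 6.93% of all genes. Cldn15, which forms sodium pores in the intestine, fell (225 and 188 against 0.928 and 0.846 CPM), while Cldn2, the pore claudin of leaky and crypt epithelium, rose (8.55 and 24.3 against 164 and 367 CPM). Of 22 genes of zinc, copper and iron transport 4 fell and 2 rose, which for the higher genes (9.09%) is near the 6.93% of all genes. The ferroxidase Heph was among the lower (113 and 100.5 against 2.09 and 2.64 CPM) and the ferroxidase Cp, ceruloplasmin, among the higher (0.860 and 1.36 against 474 and 757 CPM). The log2 fold changes of these were −5.49 (standard error 0.17, adjusted p = 1.5e-08) and 9.12 (standard error 0.96, adjusted p = 9.1e-05).

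To see whether letters that CDX2 or HNF4A are known to bind lie near the starts of such genes, the RefSeq promoter table of GRCm38.p6 was searched, from 250 bases before to 50 after the start. Promoters were found for 10543 of the tested genes with a unique symbol. TTTATG, on either strand, was in 9.06% of 1313 promoters of lower genes and in 6.65% of 993 of higher genes. It was in 6.78% of 13452 of all tested genes, and in 11.9% of all 32851 promoters in the table. CAAAGTCCA, an HNF4 motif, was in 0.914%, 0.302%, 0.461% and 0.475% of the same sets. Neither run of letters contains the other. These are shares with no test, and a match is not a bound site. The stretches below, each from within this window and written on the strand of its gene, are 5 examples from lower genes named in the text, with the match in capitals. Agr2 and Cdhr5 also held TTTATG in this window.
Muc13, chr16:33793815-33793904, plus strand: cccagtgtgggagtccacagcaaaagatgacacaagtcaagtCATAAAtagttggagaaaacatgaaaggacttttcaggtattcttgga
Muc13, a further start, chr16:33794262-33794351, plus strand: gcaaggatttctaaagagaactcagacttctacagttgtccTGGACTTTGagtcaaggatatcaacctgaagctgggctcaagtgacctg
Spdef, chr17:27729095-27729184, minus strand: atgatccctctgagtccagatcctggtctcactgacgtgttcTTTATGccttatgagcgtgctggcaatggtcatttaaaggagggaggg
Slc10a2, chr8:5105362-5105451, minus strand: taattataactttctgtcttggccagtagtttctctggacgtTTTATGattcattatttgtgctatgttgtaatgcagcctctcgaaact
Cyp2c65, chr19:39060849-39060938, plus strand: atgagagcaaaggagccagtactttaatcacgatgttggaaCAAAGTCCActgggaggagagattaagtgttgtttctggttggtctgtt
Muc13 thus holds TTTATG at one start and the HNF4 letters at another, both on the reverse strand. In Spdef and Slc10a2 the letters TTTATG stand on the strand of the gene.

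Stem cell and crypt base genes did not move as 1 group: 4 rose (16.7%) and 7 fell (29.2%) of 24, beside 6.93% and 8.94% of all genes. The receptor Lgr5 had 83.9 and 76.6 CPM in the Scramble-sgRNA libraries and 105 and 187 CPM in the Cdx2-sgRNA libraries (log2 fold change 0.87, standard error 0.58, adjusted p = 0.307). Ascl2, the factor of the stem cell state, had 7.26 and 8.29 against 8.18 and 9.62 CPM, and Ephb2, which sorts crypt cells, had 184 and 188 against 210.5 and 163 CPM. None of the 3 was called. Cd44, a hyaluronan receptor and Wnt target, rose (100.2 and 132 against 407 and 620.1 CPM), as did Rnf43, which removes Wnt receptors from the surface (118 and 113 against 280.1 and 398 CPM). Smoc2, a secreted crypt base protein, fell to near 0 (31.2 and 50.4 against 0.406 and 0.317 CPM), and so did the receptor tyrosine kinase Kit (64.99 and 62.97 against 0.696 and 0.687 CPM), which marks deep crypt secretory cells. Of 24 Wnt feedback and target genes 4 rose (16.7%) and 7 fell (29.2%), beside the same shares of all genes. Axin2 was not called (131 and 149 against 164 and 186 CPM), whereas the inhibitors Nkd1 (159 and 104 against 0 and 3 reads, 83.8-fold lower, counting interval 28.4 to 409) and Apcdd1 (409 and 494 against 0 and 6 reads) and the factor Lef1 (27.9 and 24.97 against 0.116 and 1.59 CPM) fell. Mmp7, a protease that Wnt signals induce, had 18.5 and 53.9 CPM in the Scramble-sgRNA libraries and 716 and 1031 CPM in the Cdx2-sgRNA libraries, a log2 fold change of 4.59 (standard error 0.70, adjusted p = 0.000936), and its neighbour Mmp20 rose beside it. Of the receptors, Fzd10 was at least 82.8-fold lower with 140 and 120 against 0 and 0 reads. Among epithelial Wnt ligands, Wnt3, the ligand of Paneth-type cells, had 68 and 91 against 0 and 1 reads, Wnt7b 1 and 5 against 543 and 297 reads and Wnt10a 1 and 2 against 124 and 75 reads. The first was thus at or near 0 with Cdx2-sgRNA, the others with Scramble-sgRNA. Of 16 ligands listed 6 were tested, of which 4 rose and 1 fell. A ligand near 0 with Scramble-sgRNA could pass the filter through the Cdx2-sgRNA group alone and then had to be higher.

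Of 45 genes tested of the fetal and regenerating epithelium and of YAP output, 20 rose and 3 fell (median 0.85). Clu, clusterin of the regenerating crypt, had 1.91 and 3.43 CPM in the Scramble-sgRNA libraries and 498 and 322 CPM in the Cdx2-sgRNA libraries (log2 fold change 7.27, standard error 0.52, adjusted p = 5.12e-06). Ccn2, a YAP target also called CTGF, had 2.15 and 0.888 against 236 and 166 CPM, and Spp1, osteopontin, had 1 and 1 against 534 and 803 reads. The annexins Anxa1 (247 and 278 against 845 and 545 CPM), Anxa3 (83.6 and 82.3 against 517 and 373 CPM) and Anxa8 (5.35 and 2.84 against 30.8 and 14.2 CPM) rose. So did mesothelin, Msln (17.8 and 14.9 against 400.3 and 356 CPM). Ly6a, the Sca-1 antigen of repairing crypts, had 209.9 and 140.5 against 140.3 and 185 CPM and was not called. The ligands Areg (61.02 and 108 against 32.5 and 4.97 CPM, adjusted p = 0.0534) and Ereg (45.9 and 67.6 against 31.2 and 5.92 CPM, adjusted p = 0.108) were not called either, but both were called lower with no filter on low counts and without Cdx2-sgRNA replicate 1, and Areg also with DESeq2 and with the replicate block. Of 22 keratins 12 passed the filter, which a keratin near 0 with Scramble-sgRNA could do through the Cdx2-sgRNA group alone. Of the 12, 2 had 0 to 3 reads in 1 of the groups and 1 no more than that in either. Of those tested 5 rose (41.7%, beside 6.93% of all genes), and fewer without Scramble-sgRNA replicate 2. Krt7 had 181 and 178 against 649.9 and 785 CPM, Krt4 41.5 and 17.1 against 257 and 339 CPM and Krt80 1.20 and 1.60 against 16.5 and 22.9 CPM. Krt80, Krt7, Krt83 and Krt4 were a run of higher genes, uninterrupted among genes with at least 5 CPM, at chr15:101347444-101924735. The simple keratins Krt8 (1183 and 1383 against 1106 and 604 CPM) and Krt18 (449.9 and 543 against 612 and 528 CPM) were not called, but Krt8 was called lower without Cdx2-sgRNA replicate 1 (log2 fold change −1.09).

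Of 26 integrin, laminin and matrix genes 8 rose (30.8%, beside 6.93% of all genes) and 2 fell (7.69%, near the 8.94% of all genes). The laminin chain Lama5 had 73.2 and 70.5 against 464 and 442 CPM and Lama3 6.79 and 2.96 against 134 and 51.1 CPM, fibronectin, Fn1, 1.20 and 0.177 against 139 and 36.7 CPM, and the TGF-beta activating integrin Itgb6 13.4 and 11.4 against 71.3 and 51.3 CPM. Of 29 BMP and TGF-beta genes 12 rose (41.4%) and 2 fell (6.90%), beside 6.93% and 8.94% of all genes. Bmp4 had 0 and 3 against 895 and 964 reads (648-fold higher, counting interval 222 to 3146) and Bmp2 16.2 and 13.6 against 106 and 90.6 CPM. The Id genes, direct BMP targets, had 3.35 and 2.37 against 22.3 and 17.7 CPM (Id1) and 19.7 and 15.7 against 149.6 and 124 CPM (Id2). WENR-plus medium contained the BMP inhibitor Noggin in all 4 libraries. Bmp3 went down (33.1 and 24.2 against 0.464 and 0.529 CPM). Of 9 genes of caveolae and membranes tested 3 rose (33.3%, beside 6.93% of all genes). These were Cavin1 (23.8 and 16.9 against 199 and 194 CPM), Cavin2 (1.34 and 0.592 against 97.1 and 83.2 CPM) and Cav2 (73.8 and 71.8 against 290.2 and 207 CPM). The other 6 were not called, among them Cav1, the main caveolin (3.06 and 0.118 against 39.2 and 0.529 CPM). Cav1 was called higher with no filter on low counts and with the replicate block on only the libraries of the comparison.

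**Figure D4:**
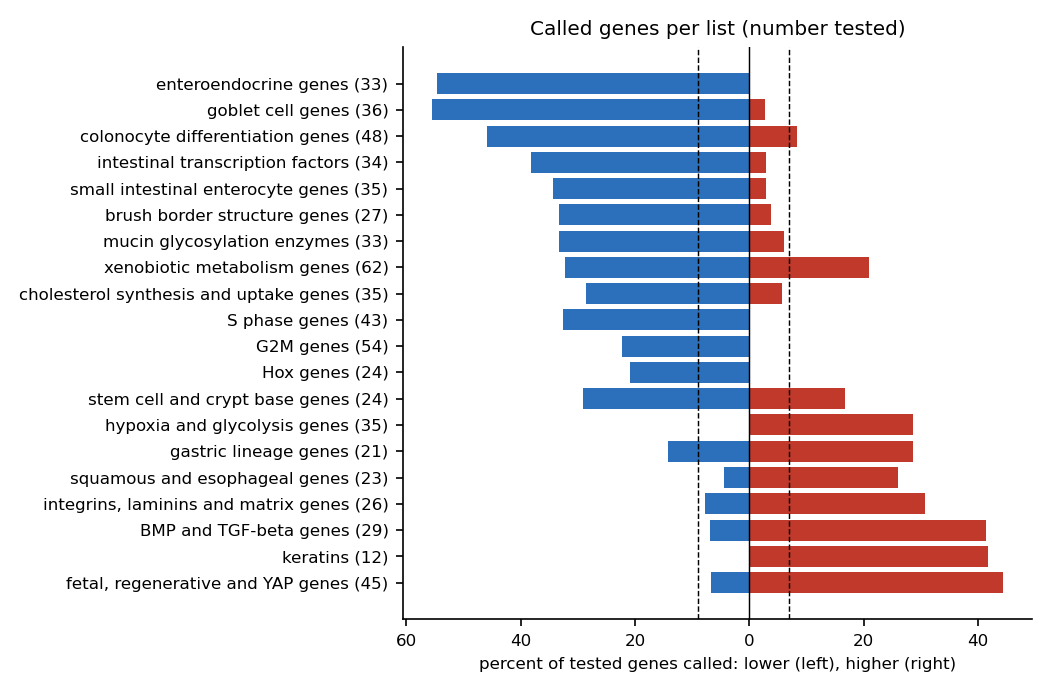
Percent of tested genes called higher (right) and lower (left) in Cdx2-sgRNA against Scramble-sgRNA proximal organoids in WENR-plus, for 20 gene lists, with dashed lines at the shares over all 15289 genes (6.93% and 8.94%). Enteroendocrine and goblet cell lists lie far to the left, and fetal, keratin and BMP lists to the right.

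Stomach and squamous genes were looked at because mouse intestine without CDX2 is known for such traits. Of 38 gastric genes listed 21 passed the filter and of 44 squamous and esophageal genes 23, and a gene near 0 with Scramble-sgRNA could pass through the Cdx2-sgRNA group alone and then had to be higher. Of the gastric genes tested 6 rose and 3 fell, with Vsig1 (0.191 and 0.237 against 21.1 and 10.7 CPM), a junction protein of the stomach, Ctse, cathepsin E (0.191 and 0.473 against 6.21 and 10.1 CPM), and Psca (0.526 and 0.237 against 7.77 and 2.06 CPM) among those that rose. Tff2, the trefoil peptide of gastric glands, went the other way (44 and 45 against 0 and 0 reads, at least 28.4-fold lower). The gastric mucin Muc5ac and the stomach factors Sox2 and Barx1 had 0 reads in the 4 libraries, and the gland mucin Muc6 had 3 and 0 against 0 and 0 reads. Of the squamous genes tested 6 were called higher and 1 lower. Pax9, a factor of the esophagus and oral epithelium, had 0.0478 and 0.592 against 14.7 and 31.99 CPM, and Ly6d 2.58 and 4.26 against 135 and 124 CPM, but the basal squamous genes Trp63 (3 and 0 against 2 and 0 reads) and Krt5 (4 and 0 against 1 and 0 reads) were near 0 in every library. Among the largest rises by the fixed rule were Scgb3a1 (0 and 0 against 223 and 1055 reads, at least 446-fold higher) and Sftpd (0 and 1 against 637 and 932 reads, 1641-fold higher, counting interval 294 to 64880), Aqp5 and the ligand Nrg1 (0 and 0 against 77 and 142 reads, at least 76.4-fold higher).

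Metabolic genes changed in both directions. Among 62 genes of xenobiotic metabolism 20 fell (32.3%) and 13 rose (21.0%), beside 8.94% and 6.93% of all genes. Without Cdx2-sgRNA replicate 2 these were 12 and 8, and without Scramble-sgRNA replicate 2 the higher genes numbered 6. The colon P450 enzymes Cyp2c55 (245 and 257 against 11.6 and 14.5 CPM) and Cyp2c65 (46.6 and 50.1 against 0.986 and 0.793 CPM), and Aldh1b1, an aldehyde dehydrogenase of crypt cells (166 and 174 against 0.986 and 0.899 CPM), fell. Cyp1b1 rose (2.15 and 3.96 against 328 and 706 CPM) with the aryl hydrocarbon receptor Ahr (24.2 and 22.2 against 191 and 144 CPM), whereas Cyp1a1, another target of that receptor, fell (25.1 and 18.8 against 0.870 and 0.264 CPM). A run of 6 lower genes, uninterrupted among genes with at least 5 CPM, at chr8:92855339-93969388 held the carboxylesterases Ces1d, Ces1e, Ces1f and Ces1g between Lpcat2 and Gnao1, with Ces1g at 958 and 301 against 0 and 1 reads. Of 35 genes of cholesterol synthesis and uptake 10 fell and 2 rose, the lower ones with log2 fold changes between −1.59 (Stard4) and −1.07 (Nsdhl). The call of Nsdhl ended without Scramble-sgRNA replicate 1 and without Cdx2-sgRNA replicate 2 (log2 fold changes −0.9993 and −0.8149). It also ended with the replicate block on only the libraries of the comparison. Stard4, which carries cholesterol (269.5 and 230 against 88.9 and 77.2 CPM), and Acly, which makes acetyl-CoA (239.8 and 235 against 118 and 96.1 CPM), kept their calls. The number of lower genes of the list was 3 without Cdx2-sgRNA replicate 2 and 4 without Scramble-sgRNA replicate 1. Hypoxia and glycolysis genes rose in 10 of 35 cases (6 without Scramble-sgRNA replicate 2) and none fell. The mitophagy gene Bnip3 had 284 and 218 against 1060 and 1350 CPM, the growth factor Vegfa 123 and 149 against 345 and 404 CPM, the collagen hydroxylase P4ha2 16.01 and 10.1 against 106 and 118 CPM and the glycolytic kinase Pgk1 812 and 694 against 1684 and 1809 CPM. Car9 (202 and 136 against 234 and 219 CPM) and Slc2a1 (118 and 110.1 against 195 and 129 CPM), also induced by hypoxia, were not called.

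Cell cycle genes were lower but close to the limits of the test. The S phase list had 14 of 43 genes lower (median −0.95), and the G2M list 12 of 54 (median −0.74), with none higher in either. Cdca7 (142 and 135 against 18.6 and 18.6 CPM), the histone chaperone Nasp (88.6 and 102 against 38.04 and 25.8 CPM), Usp1 (128 and 139 against 60.1 and 36.1 CPM) and the checkpoint gene Clspn (21.3 and 22.1 against 5.80 and 4.55 CPM) kept their calls under every alternative run for them. Nasp, Usp1 and Clspn lie on chromosome 4, where replicate 2 of the Cdx2-sgRNA organoids was lower throughout, and each was lower in that replicate than in replicate 1. Mki67, the proliferation marker, had 553 and 725 against 269.8 and 273 CPM (log2 fold change −1.24, standard error 0.40, adjusted p = 0.0423), and its call ended when any 1 of the 4 libraries was left out (adjusted p up to 0.201). The number of lower genes ran from 4 without Cdx2-sgRNA replicate 2 to 20 without replicate 1 for the S phase list, and from 1 to 9 for the G2M list. Without Scramble-sgRNA replicate 1 or 2 they were 8 and 5 for S phase and 2 in each case for G2M. Replication-dependent histone genes, which total RNA libraries can hold, fell in a run of 7 genes, uninterrupted among genes with at least 5 CPM, at chr13:23570517-23622558. That run lies on chromosome 13, where replicate 2 of the Cdx2-sgRNA organoids was lower throughout. Hist1h2ap, elsewhere on the chromosome, had 215 and 209 against 83.3 and 60.1 CPM and was lower in both replicates.

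Some single genes varied by library. Sox17, an endoderm factor, had 0 and 1 reads in the Scramble-sgRNA libraries and 5 and 988 in the Cdx2-sgRNA libraries, so that the rise was carried by replicate 2, and its call ended without that library and without either Scramble-sgRNA library (adjusted p up to 0.507). Cdkn2a, which encodes cell cycle inhibitors, had 5 and 1 against 48 and 8 reads and was not called (adjusted p = 0.0686), but was called higher with DESeq2, with no filter on low counts and without Cdx2-sgRNA replicate 2, and the Wnt antagonist Sfrp4 had no read in any of the 4 libraries. Of 24 Hox genes 5 fell (20.8%, beside 8.94% of all genes), all of the Hoxa cluster, and none rose. Of these only Hoxa3 kept its call under every alternative. Among the 24 genes 8 had 0 to 3 reads in 1 of the groups, and 2 had no more than that in either. Hoxa3 had 126 and 67 against 0 and 2 reads, and the more abundant Hoxb9 (88.5 and 78.1 against 158 and 147 CPM) was not called.

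By abundance per length, the called genes with the most RNA in their higher group were Bsg, a chaperone of lactate transporters (3463 against 6765 TPM), S100a10 (1224 against 2883 TPM) and the nuclear noncoding RNA Malat1 (775 against 2497 TPM) among those that rose. The call of Bsg ended without Scramble-sgRNA replicate 2, that of S100a10 without Scramble-sgRNA replicate 1 or Cdx2-sgRNA replicate 1, and that of Malat1 without Scramble-sgRNA replicate 1. The log2 fold changes there were 0.961 for Bsg, 1.31 and 1.01 for S100a10 and 1.66 for Malat1. The call of Bsg also ended with the replicate block on only the libraries of the comparison. Bnip3 (543 against 2160 TPM) and the esterase Esd (636 against 1826 TPM) came next and kept theirs. Among those that fell they were Hist1h2ai (2219 against 415 TPM), whose call ended when any 1 of the 4 libraries was left out (adjusted p up to 0.181), Lgals4 (1895 against 398 TPM) and Spink4 (1618 against 26.9 TPM). The largest falls by the fixed rule were in genes with no read left in the Cdx2-sgRNA organoids, such as the X-linked genes Pcdh19 (at least 104-fold lower) and Nhs (at least 99.7-fold lower), and in Tfap2c, a factor of trophoblast and skin (912 and 682 against 1 and 2 reads). Wipf1, an actin regulator of blood cells, had 331 and 265 against 1 and 0 reads.

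The same guide contrast was read in distal organoids in WENR-plus, with no library in common. The effect differed between the regions for 762 genes (4.98%), 187 with the more positive value in proximal organoids (1.22%) and 575 with the more negative one (3.76%). In distal organoids the means were 1190 ± 14.9 against 1587 ± 468 CPM for Muc13 (Scramble-sgRNA against Cdx2-sgRNA, ± SD, n = 2), and the difference of the log2 fold changes was −6.05 (standard error 0.37, adjusted p = 5.08e-06). Cdh17 had 559 ± 161 against 630.5 ± 55.1 CPM there, a difference of −5.70 (standard error 0.34, adjusted p = 4.91e-06), and Hnf4a 373 ± 104 against 371 ± 32.4 CPM, a difference of −2.37 (standard error 0.41, adjusted p = 0.00722). Cftr had 101 ± 69.2 against 49.1 ± 24.02 CPM and Gucy2c 94.4 ± 25.1 against 75.8 ± 12.3 CPM, with differences of −6.67 (standard error 0.87, adjusted p = 0.00119) and −6.07 (standard error 0.59, adjusted p = 0.000152). None of the 5 was called in distal organoids. There, 21 genes were called higher and 19 lower, and 18 and 16 of these were called in the same direction in proximal organoids. Wipf1 was among the lower ones, with 175 and 237 against 4 and 0 reads in distal organoids. Among higher genes, Clu had 2.23 ± 0.882 against 11.03 ± 5.87 CPM in distal organoids (a difference of 4.96 with a standard error of 0.64 and adjusted p = 0.00116), Cyp1b1 0.998 ± 0.490 against 3.17 ± 1.19 CPM (5.75 with a standard error of 0.71 and adjusted p = 0.000944) and Bst1, an ectoenzyme of stromal and immune cells, 0.494 ± 0.0616 against 1.31 ± 0.237 CPM (7.62 with a standard error of 0.54 and adjusted p = 1.65e-05). The count of region differences was 414 and 457 without proximal Scramble-sgRNA replicate 1 or 2, 360 without distal Scramble-sgRNA replicate 2 and 401 without distal Cdx2-sgRNA replicate 1. Of the goblet list 17 genes had a called difference and all were more negative in proximal organoids. The number was 8 and 4 without proximal Scramble-sgRNA or Cdx2-sgRNA replicate 2, 8 without distal Cdx2-sgRNA replicate 1 and 4 without distal Scramble-sgRNA replicate 2. The distal Scramble-sgRNA libraries had a shift of their own between replicates, on chromosome 19, with a median log2 ratio of replicate 2 to replicate 1 of 0.476 in WENR-plus, and its part in the region differences was not tested. Cdx2 RNA in distal organoids was 72.3 ± 6.28 against 56.2 ± 8.52 CPM.

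In proximal organoids without Wnt factors, the guide contrast used 4 other libraries, made from the same organoids split between the media. Across genes, the deviations of same-numbered libraries from their group means correlated between the media at r = 0.589 for Cdx2-sgRNA and 0.407 for Scramble-sgRNA, so that the overlap of calls is not one between independent organoids. Of the 1060 higher genes 663 were also called higher there (62.5% of those in WENR-plus and 47.97% of those in WENR-minus), and of the 1367 lower genes 910 were lower (66.6% and 49%). The effect differed between the media for 550 genes (3.60%), 295 with the more positive value in WENR-plus (1.93%) and 255 with the more negative one (1.67%). Among cell cycle genes, 18 of 43 S phase and 16 of 54 G2M genes had a more negative effect in WENR-plus, and none a more positive one. Their median log2 fold changes were −0.95 and −0.74 in WENR-plus and 0.82 and 0.97 in WENR-minus. Clspn, of the replication checkpoint, had 21.7 ± 0.539 against 5.17 ± 0.885 CPM in WENR-plus and 3.19 ± 1.61 against 8.37 ± 0.764 CPM in WENR-minus (Scramble-sgRNA against Cdx2-sgRNA), a difference of −3.45 (standard error 0.49, adjusted p = 0.0100), a call that ended with the replicate number as a block on only the libraries of the comparison (adjusted p = 0.0556). Of 48 colonocyte genes 7 were more positive in WENR-plus and none more negative. Car1 had 176 ± 44.8 against 19.7 ± 3.83 CPM in WENR-plus and 7331 ± 1950 against 15.7 ± 5.99 CPM in WENR-minus, a difference of 5.72 (standard error 0.54, adjusted p = 0.00147), and Cyp2c55 251 ± 8.24 against 13.1 ± 2.08 CPM and 3153 ± 281 against 10.3 ± 0.446 CPM (4.00 with a standard error of 0.24 and adjusted p = 4.69e-05). So the fall of Car1 and Cyp2c55 was steeper without Wnt factors, where the Scramble-sgRNA level was higher. A fit with a replicate block within each region and guide, which pairs the media of the same organoids and was chosen after seeing the data, called 1596 differences. With it 33 S phase and 42 G2M genes were more negative in WENR-plus and 18 colonocyte genes more positive.

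The number of media differences hung on single libraries. It was 50 and 46 without Scramble-sgRNA replicate 1 or 2 in WENR-plus, and 352 and 153 without Cdx2-sgRNA replicate 1 or 2. Without a WENR-minus library it was 52 and 793 for Scramble-sgRNA replicate 1 or 2, and 580 and 115 for Cdx2-sgRNA replicate 1 or 2. Without any 1 of 5 of these libraries (both Scramble-sgRNA and Cdx2-sgRNA replicate 2 in WENR-plus, Scramble-sgRNA replicate 1 and Cdx2-sgRNA replicate 2 in WENR-minus), the S phase genes numbered 3 or 4, the G2M genes 0 to 3 and the colonocyte genes 3 or 4. Without Cdx2-sgRNA replicate 1 they numbered 13, 7 and 7 in WENR-plus and 9, 11 and 6 in WENR-minus, and without Scramble-sgRNA replicate 2 in WENR-minus 29, 37 and 10. No gene of the 3 lists was called in the opposite direction when any of the 8 libraries was left out.

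**Figure D5:**
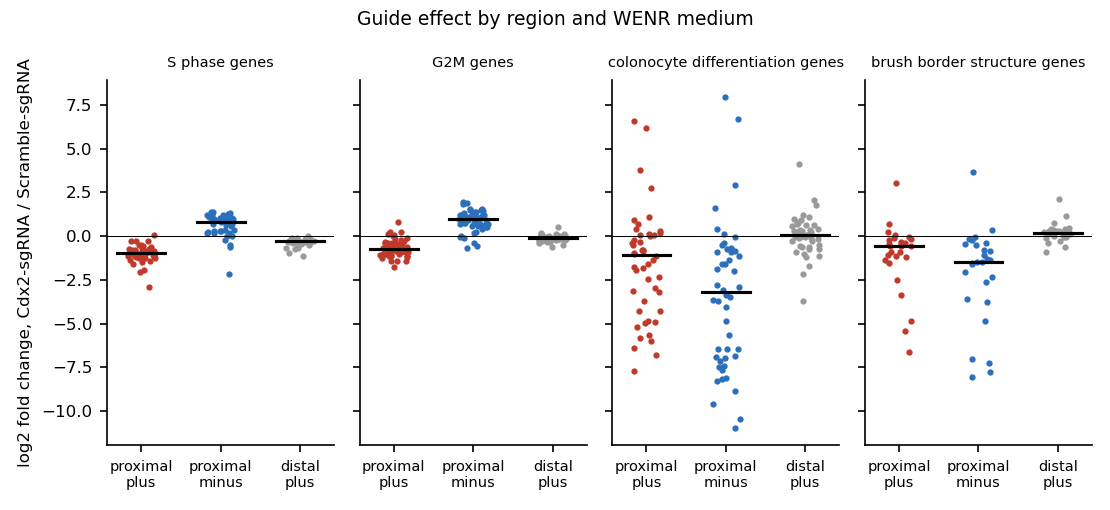
Log2 fold change of Cdx2-sgRNA against Scramble-sgRNA for each tested gene of 4 lists in proximal WENR-plus, proximal WENR-minus and distal WENR-plus organoids, with a bar at the list median. S phase and G2M medians lie at −0.95 and −0.74 in proximal WENR-plus and at 0.82 and 0.97 in proximal WENR-minus.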

How the data were processed

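Total RNA of colon organoids was sequenced with a stranded kit, 1 library per sample. Per the labels and methods, the authors ran Salmon 1.1.0 on GENCODE mouse transcripts (mm10), and the submitters' notes name DESeq2 1.32. The deposited tables give an expected count of reads, TPM and an effective length per transcript, with no pooling and no filter stated. Values depend on how Salmon split reads among similar transcripts, so that paralogs and overlapping genes are uncertain.

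Expected counts were summed to 54123 genes with a GENCODE annotation of GRCm38 from an earlier release, and rounded. Of 140748 transcripts 884 were not matched, which held 0.257% to 0.362% of the counts of the 4 libraries. edgeR 4.0.16 (R 4.3.3) was run with TMM scaling, its default filter on low counts and a quasi-likelihood fit over all 16 libraries with 1 term per group, which left 8 residual degrees of freedom. Libraries of the same organoids in both media enter this fit, so these degrees of freedom are not all independent. The adjusted p of every comparison may therefore be too small. With only the 4 libraries of the main comparison 1941 genes were called, and 1403 with a replicate block on them. Genes were called at a Benjamini-Hochberg adjusted p under 0.05 over 15289 genes and an absolute log2 fold change over 1. Differences of effects were contrasts of the same fit. Standard errors were taken from the F statistic and the size of the change. Where a group had no read, a fold is a lower bound against 3 counts over the group, and with 1 to 3 reads a ratio with a 95% interval is given. These intervals cover counting error only. DESeq2 1.42.0 and the other alternatives are in the closing section, and the fit was tested on simulated data.

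The groups, the gene lists and the promoter letters were chosen with earlier results of these data known. Named genes were Cdx2, 12 genes followed by the study, members of the lists, the 10 largest rises and 10 largest falls among called genes that reached 5 CPM and did not overlap, the 10 called genes of each direction with the most TPM, and the 5 highest and 5 lowest differences of effect. Some genes are not reported here. Replicate numbers were not treated as pairs between the guides, where the deviations of same-numbered libraries from their group means correlated at −0.0594 across genes. Between the media, which per the methods split the same organoids, they correlated at 0.281 to 0.589 in the 4 pairs of region and guide, and a fit with that pairing is given for the media difference.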

Additional observations from a re-analysis of the deposited data

Results flagged for a closer look

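The effect of Cdx2-sgRNA differed between proximal and distal organoids in WENR-plus for 762 genes and between WENR-plus and WENR-minus in proximal organoids for 550 genes, by contrasts of the edgeR fit. Among the genes described, the proximal log2 fold change minus the distal one was −6.05 for Muc13, −5.70 for Cdh17, −6.67 for Cftr, −6.07 for Gucy2c and −2.37 for Hnf4a, and 4.96 for Clu, 5.75 for Cyp1b1 and 7.62 for Bst1. The log2 fold change in WENR-plus minus that in WENR-minus was 5.72 for Car1, 4.00 for Cyp2c55 and −3.45 for Clspn, whose call ended with a replicate block on only the libraries of the comparison. Groups of 2 libraries are too small for a search for single libraries that stand apart.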

How the results depend on the processing

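The precision is limited by 2 libraries per group, and the depth limits the genes with few reads in 1 group. For the main comparison (2427 called genes), the count was 1509 with at least 10 counts in every library, which tests fewer genes, and 3787 passed with no fold change threshold. Leaving out 1 of the 4 libraries gave 1511 to 2150 genes. For the difference between regions (762 genes) the count was 1228 with DESeq2, 1863 with no filter on low counts and 466 with at least 10 counts, and 360 to 805 with any 1 of its 8 libraries left out. For the difference between media (550 genes) it was 1166 with DESeq2, 1596 with no filter, 82 with only the libraries of the comparison and 362 with length-scaled counts, and 46 to 793 with any 1 of its 8 libraries left out. The distal and WENR-minus libraries were left out as a choice made after seeing the data. The cause of these shifts was not tested. No fibroblast and muscle gene was left with at least 10 counts in every library, so that list has no median there. Of 545 list medians recomputed under the alternatives, 160 moved by more than the spread between the replicates. The Cdx2 level kept its direction and its call under each alternative run for it.

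With the replicate number as a block, the counts were 2549, 985 and 829 for the main comparison, the regions and the media. A fit with the block on only the libraries of the comparison, chosen after seeing the data, gave 1403, 550 and 98, and ended the call of the media difference of Clspn (adjusted p = 0.0556). It also ended the calls of Bsg, Klf5, Maf and Nsdhl in the main comparison. A replicate block within each region and guide, also chosen then, which pairs the media of the same organoids, gave 1596 media differences. Leaving out mitochondrial genes, also chosen after seeing the data, gave 2400, 764 and 616.

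Hoxb9, which was not called, passed the fold limit without Scramble-sgRNA replicate 1. Some log2 fold changes of genes that were not called changed sign. Axin2 was at −0.016 with length-scaled counts. With 1 library left out, Cav1 ranged from −1.61 to 7.32, Ephb2 from −0.20 to 0.18, Espn from −1.72 to 2.13, Galnt3 from −0.32 to 0.020 and Galnt4 from −1.06 to 0.028. Insm1 ranged from −0.063 to 0.78, Ly6a from −0.34 to 0.25 and Sox9 from −0.062 to 0.33.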
